A study of Homo sapiens with 8 samples.

Results

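The genes described here encode 10 secreted proteins that recruit, expand or activate white blood cells: the colony-stimulating factors CSF3 and CSF2, the IL-6 family cytokines IL6 and LIF, the CXC chemokines CXCL1, CXCL2, CXCL3, CXCL5 and CXCL8, and the CC chemokine CCL20. They were taken from the deposited count table by gene symbol, and all 10 were found among its 60617 genes. CSF3 was chosen by its measured level, which was much higher in untreated NeuT than in untreated Empty cells, and the other members were added as related genes with results of these libraries known. The difference between untreated lines is therefore given as a description, without a test. Both lines are MCF-10A, an established non-tumorigenic human breast epithelial line. Per the labels, Empty and NeuT cells were grown in medium with serum, epidermal growth factor, hydrocortisone, insulin and cholera toxin, and were left untreated or received 1 µM JG-98, an inhibitor of Hsp70 chaperones, for 12 h. Each of the 4 groups had 2 libraries of poly(A)-selected RNA. What the NeuT or Empty cells carry is not given in the labels, nor is it said whether a line is 1 clone, and the untreated cells are not described as having received a vehicle. Nothing says that replicates came from separate cultures, so p-values measure only the spread between these libraries.

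CSF3, also called G-CSF, drives the formation of neutrophils in the bone marrow, and CSF2, also called GM-CSF, supports granulocytes and macrophages. IL6 and LIF act through receptors that share the IL6ST (gp130) chain and switch on STAT3. CXCL1, CXCL2, CXCL3, CXCL5 and CXCL8 attract neutrophils through the receptor CXCR2, and CCL20 attracts lymphocytes and dendritic cells through CCR6. Epithelial cells are known to release such factors when interleukin-1, interleukin-17 or microbial products activate NF-kB, and the mRNAs of several of them are short-lived.

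Under JG-98, 9 of the genes were called higher in NeuT than in Empty cells, from 1.9-fold for LIF to 67.2-fold for CSF3. CSF3 was chosen by the gap between the untreated lines, not by these treated libraries. The other members were added with results of these libraries known, so the calls are not independent of the choice. Over all genes tested the share called higher was 21.7%. IL6, at most 6 counts in any Empty library, is not counted, since it entered the test only through NeuT, where it was high. The differences between treated and untreated cells of a line were smaller. CSF3 rose 2.05-fold in NeuT cells and CCL20 rose 1.45-fold there, while CXCL3 and CXCL2 rose 1.91-fold and 1.57-fold in Empty cells. In the other line the same genes rose without passing the test. CSF3 and CCL20 rose 3.81-fold and 1.34-fold in Empty, and CXCL3 and CXCL2 1.23-fold and 1.29-fold in NeuT. The interaction of line and drug called 0 of 10 members, so these calls do not show a difference between the lines. The authors' own values for Empty gave no member an adjusted p under 0.05. CXCL1, the most abundant of the 10 per unit of length, did not pass the test in either line.

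The promoters of 8 members were in the RefSeq table of GRCh38.p14, and those of CSF3 and LIF were not. The stretches below are printed 5′ to 3′ on the gene's own strand, and are shown because every one of the 8 holds a match to the kB-type motif GGNNNTTCC, a short form of the NF-kB site. Capitals mark the matches, on either strand. For CXCL1, CSF2 and CCL20 the stretch runs from 120 to 21 bases before the RefSeq start of the gene. For the other members, where an exon of the count table or of GENCODE 29 reaches into those bases, 30 bases around the first match are given. The positions are chr4:73869273-73869372 (plus strand) for CXCL1, chr4:74099253-74099282 (minus strand) for CXCL2, chr4:74038748-74038777 (minus strand) for CXCL3, chr4:73998748-73998777 (minus strand) for CXCL5, chr4:73740468-73740497 (plus strand) for CXCL8, chr5:132073669-132073768 (plus strand) for CSF2, chr7:22727118-22727147 (plus strand) for IL6 and chr2:227813722-227813821 (plus strand) for CCL20.
CXCL1: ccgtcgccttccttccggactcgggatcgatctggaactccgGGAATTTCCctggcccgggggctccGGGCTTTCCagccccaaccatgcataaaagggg
CXCL2: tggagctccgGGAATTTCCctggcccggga
CXCL3: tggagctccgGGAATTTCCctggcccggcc
CXCL5: atgagttcagGGAATTTCCccagcatccca
CXCL8: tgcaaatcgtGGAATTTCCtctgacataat
CSF2: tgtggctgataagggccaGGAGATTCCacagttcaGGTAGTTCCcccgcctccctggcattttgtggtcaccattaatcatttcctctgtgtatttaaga
IL6: atcaaatgtgGGATTTTCCcatgagtctca
CCL20: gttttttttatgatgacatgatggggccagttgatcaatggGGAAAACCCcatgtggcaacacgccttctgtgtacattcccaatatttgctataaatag

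CXCL1, CXCL2 and CXCL3 each carried the same pair of matches, GGAATTTCC and GGGCTTTCC, of which the second is printed for CXCL1 alone, and CXCL5 and CXCL8 carried GGAATTTCC as well. These letters read as a match on both strands and were counted once. Over the 250 bases before the start, CXCL1 and CXCL3 were 81.4% identical in a global alignment, CXCL2 and CXCL3 73.3%, CXCL1 and CXCL2 70.4%, and the other pairs of the 5 CXC genes 42.0 to 51.1%. In CSF2 the match GGAGATTCC overlaps a match to GAGATTC, the CK-1-type motif of cytokine promoters. For CCL20, IL6, CXCL3, CXCL8 and CXCL2 the RefSeq start lies inside the gene as the count table draws it, by 8103, 1316, 118, 28 and 1 bases, so other annotated transcripts begin upstream. For CXCL3, 98 of the 100 bases from 120 to 21 before the RefSeq start are in the exon that was counted.

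The kB-type motif was found in 8 of 8 members searched and in 17.1% of 35116 promoter windows in the table (250 bases, both strands). The other motifs searched on both strands were rarer among the members. The AP-1-type TGANTCA was found in 1 of 8 (CXCL8) and in 6.57% of all promoters, the C/EBP-type TTNNGCAA in 2 of 8 (IL6 and CXCL2) and in 9.05%, and GAGATTC in 1 of 8 and in 2.35%. TATAAA, searched on the forward strand, was found in 2 of 8 (CXCL8 and CCL20) and in 6.80%. A match is a description of letters and does not show binding.

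Total counts per library were 55050996 to 56861971, except for Empty treated replicate 1 with 37341458. Of the 17693 genes tested, all 10 members were part, though IL6 would not have passed the filter on low counts in the Empty libraries alone. The cells were checked against markers. All 10 epithelial markers were detected in every group, with summed levels of 25800 to 26830 CPM (counts relative to library size, with TMM factors) in Empty and 33100 to 34810 CPM in NeuT. Under JG-98, 6 of them were called higher in NeuT, among them KRT6A (from 5905 to 9919 CPM), LAMB3 (from 2236 to 4714 CPM) and KRT5 (from 5052 to 7249 CPM), which carried most of the rise of the sum. Another 3 were called lower, EPCAM (from 209.7 to 98.6 CPM), KRT17 (-0.41) and KRT14 (-0.19). All marker calls given here stand beside 21.7% of all genes tested called higher and 20.0% called lower. The 9 leukocyte markers summed to 25.4 to 28.98 CPM in Empty and 32.2 to 35.3 CPM in NeuT, with MS4A1 at 0 counts in every group and CD3E and PTPRC at or near 0. CSF1R (group means of 19.7 to 22.96 CPM) and CD14 (5.56 to 11.7 CPM) carried this sum, and both were called higher in NeuT under JG-98, CD14 by 1.06 (edgeR adjusted p = 2.59e-06) and CSF1R by 0.22 (edgeR adjusted p = 0.0457). The 8 fibroblast markers summed to 14.1 to 17.5 CPM in Empty and 90.5 to 104.6 CPM in NeuT, where DCN held most of the sum at 69.9 CPM under JG-98 while PDGFRA was at or near 0. DCN (4.64) and POSTN (1.74, from 6.58 to 21.7 CPM) were called higher in NeuT under JG-98. COL1A1 (-0.19), COL1A2 (-0.50) and PDGFRB (0.32) were tested and not called. The 6 endothelial markers summed to 12.4 to 17.7 CPM in Empty and 9.54 to 11.4 CPM in NeuT, a sum carried by PECAM1 (-0.59) and KDR (-0.93), both called lower. CDH5 (2.63) and TEK (2.26) were under 0.5 CPM and were tested only through NeuT, and VWF (2.15) was not called. The epithelial, leukocyte and fibroblast sums were thus higher in NeuT, as the members were, with single markers in either direction. The part of these markers in the members' difference was not tested. In bulk RNA, fewer cells expressing a gene and less RNA per cell cannot be told apart.

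Some reads of these genes are uncertain. CXCL1, CXCL2 and CXCL3 share stretches of 50 bases with each other (4.81%, 12.5% and 6.01% of their stretches). The labels name both 50 and 100 bases as read lengths, and at 100 bases the shares are 0.0%, 5.0% and 3.27%. How multi-mapping reads were treated is not stated. Exons of other genes overlap 20.7% of the exonic bases of IL6 (IL6-AS1 and STEAP1B), 17.3% of those of CXCL5 and 4.37% of those of LIF (LIF-AS1 and LIF-AS2), and the strand setting is not stated either. Low counts limited IL6 and CXCL5, which had at most 12 counts in any Empty library.

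**Figure D1:**
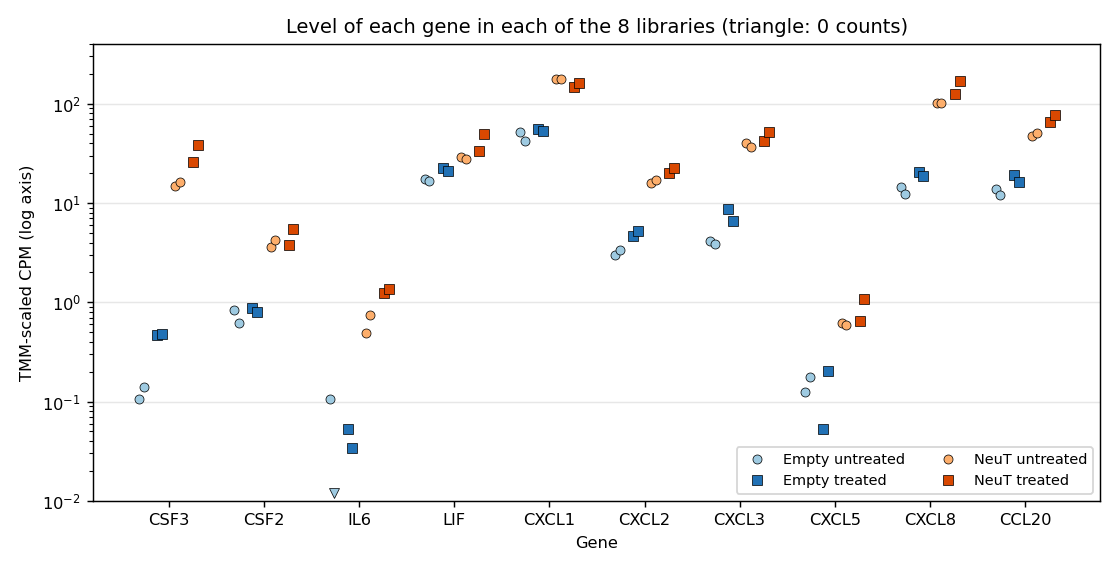
TMM-scaled CPM on a log axis for each gene in each of the 8 libraries, with light circles for untreated and dark squares for treated cells, blue for Empty and orange for NeuT. The 4 NeuT libraries lie above the 4 Empty libraries for each of the 10 genes, and the triangle marks the 0 counts of IL6 in untreated Empty replicate 2.

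CSF3 (ENSG00000108342, chromosome 17, 40015361 to 40017813) had 6 and 8 counts in the untreated Empty libraries, which is 0.106 and 0.140 CPM. With JG-98 it had 18 and 28 counts, or 0.472 and 0.477 CPM. In NeuT it was at 15.0 and 16.3 CPM without the drug and at 26.0 and 38.1 CPM with it. The treated libraries lay above the untreated ones in both lines, without overlap. In NeuT the log2 change was 1.04 (SE 0.14) and was called (edgeR adjusted p = 0.000972). In Empty it was 1.93 (SE 0.51, 95% interval 0.83 to 3.03) and was not called (edgeR adjusted p = 0.178), though DESeq2 (adjusted p = 0.00505), a fit without the filter on low counts (0.000468) and the replicate block (0.0404) called it. The untreated libraries, whose gap picked CSF3, are the baseline of both changes, so the choice favours a rise in Empty and a fall in NeuT. Under JG-98, NeuT exceeded Empty by 6.07 (SE 0.22) in log2 units (edgeR adjusted p = 3.9e-11). Without the drug the difference was 6.96 (SE 0.27), the value for which CSF3 was picked.

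CSF2 (ENSG00000164400, chromosome 5, 132073789 to 132076170) lies in the cytokine cluster of its chromosome. It was at 0.845 and 0.613 CPM in untreated and 0.866 and 0.801 CPM in treated Empty cells, and at 3.58 and 4.29 CPM in untreated and 3.79 and 5.53 CPM in treated NeuT cells. Treated and untreated libraries overlapped in both lines. The change with JG-98 was 0.19 (95% interval -0.42 to 0.79) in Empty and 0.25 (-0.19 to 0.68) in NeuT, and neither was called (edgeR adjusted p = 0.891 and 0.632). The difference between lines under the drug was 2.49 (SE 0.25; edgeR adjusted p = 3.29e-07).

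IL6 (ENSG00000136244, chromosome 7, 22725884 to 22732002) was barely detected in Empty cells. It had 6 and 0 counts without JG-98 and 2 and 2 with it. The 0 allows up to 3 counts, or 0.0526 CPM, and such limits cover counting error only. In NeuT, IL6 was at 0.493 and 0.742 CPM (27 and 40 counts) without and 1.24 and 1.35 CPM (67 and 73 counts) with JG-98, so its treated libraries did not overlap its untreated ones. The NeuT change of 1.07 (SE 0.44) was not called (edgeR adjusted p = 0.236). Under JG-98 the summed counts gave a NeuT to Empty ratio of 31.3 with a counting interval of 12.0 to 116.6, and the log2 difference was 4.89. IL6 passed the filter on low counts only through NeuT, where it was high, so its call had to follow and no p is given. The ratio of treated to untreated Empty cells was 0.784 with a counting interval of 0.163 to 3.31, which spans a fall and a rise.

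LIF (ENSG00000128342, chromosome 22, 30240453 to 30246759) was the member with the smallest difference between lines. It was at 17.5 and 16.6 CPM in untreated and 22.7 and 20.8 CPM in treated Empty cells. In NeuT it was at 29.1 and 28.0 CPM without and 33.2 and 49.4 CPM with JG-98. Treated libraries were above untreated ones in both lines, but neither the Empty change of 0.34 (SE 0.16) nor the NeuT change of 0.53 (SE 0.15) was called (edgeR adjusted p = 0.540 and 0.123). A fit of only the 4 Empty libraries called the Empty change (adjusted p = 0.0445), and DESeq2 called the NeuT change (adjusted p = 0.00431). The 2 treated NeuT libraries lay far apart. Without the lower of them, replicate 1, the NeuT change was 0.79 and was called, as were those of CXCL2 (0.45), CXCL3 (0.43) and CXCL8 (0.75). Without replicate 2 it was 0.21 and not called (adjusted p = 0.305). CXCL2 (0.27, adjusted p = 0.320) and CXCL3 (0.13, adjusted p = 0.692) were then not called either, while CXCL8 (0.28, adjusted p = 0.0434) was. The line difference under JG-98 was 0.93 (SE 0.16; edgeR adjusted p = 0.00111).

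CXCL1 (ENSG00000163739, chromosome 4, 73869393 to 73871242), a ligand of CXCR2, was the most abundant member. It was at 52.3 and 42.3 CPM in untreated and 55.2 and 53.1 CPM in treated Empty cells. In NeuT it was at 177 and 179 CPM without and 147 and 163 CPM with the drug. The treated libraries thus lay above the untreated ones in Empty and below them in NeuT. Neither change was called, at 0.19 (SE 0.084; edgeR adjusted p = 0.455) in Empty and -0.20 (SE 0.080; edgeR adjusted p = 0.243) in NeuT. Under JG-98 NeuT was higher by 1.52 (SE 0.084; edgeR adjusted p = 1.27e-09).

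CXCL2 (ENSG00000081041, chromosome 4, 74097040 to 74099196) and CXCL3 (ENSG00000163734, chromosome 4, 74036589 to 74038807) are close relatives of CXCL1. CXCL2 was at 3.01 and 3.35 CPM in untreated and 4.67 and 5.23 CPM in treated Empty cells, and at 15.9 and 17.1 CPM in untreated and 20.0 and 22.6 CPM in treated NeuT cells. CXCL3 was at 4.12 and 3.84 CPM in untreated and 8.74 and 6.66 CPM in treated Empty cells, and at 40.6 and 36.6 CPM in untreated and 42.6 and 52.1 CPM in treated NeuT cells. For both genes every treated library was above every untreated library of its line. In Empty both were called, CXCL3 with 0.93 (SE 0.15; edgeR adjusted p = 0.0115) and CXCL2 with 0.65 (SE 0.13; edgeR adjusted p = 0.0336). In NeuT neither passed, at 0.29 (edgeR adjusted p = 0.196) and 0.37 (edgeR adjusted p = 0.0570). The CXCL2 call in Empty was lost in a fit of only the 4 Empty libraries (adjusted p = 0.0510). It was also lost without any 1 of the 4 Empty or the 2 untreated NeuT libraries (0.0811 to 0.351), and that of CXCL3 was lost without either untreated Empty library or treated Empty replicate 1 (0.109 to 0.238). Under JG-98 NeuT was 4.28-fold higher for CXCL2 (edgeR adjusted p = 1.54e-10) and 6.23-fold higher for CXCL3 (edgeR adjusted p = 4.05e-10).

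CXCL8 (ENSG00000169429, chromosome 4, 73740541 to 73743716), interleukin-8, was at 14.5 and 12.4 CPM in untreated and 20.7 and 18.7 CPM in treated Empty cells. In NeuT it was at 102.3 and 100.9 CPM without and 124.0 and 171 CPM with JG-98. The treated libraries were higher in both lines. The log2 changes were 0.55 (SE 0.17) for Empty cells and 0.54 (SE 0.14) for NeuT cells, and neither was called (edgeR adjusted p = 0.318 and 0.114). A fit of only the 4 Empty libraries called the Empty change (adjusted p = 0.00333), and the fit without the filter on low counts called both (2.3e-06 and 5.39e-09). Under JG-98 NeuT was higher by 2.91 (SE 0.16; edgeR adjusted p = 2.96e-06).

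CXCL5 (ENSG00000163735, chromosome 4, 73995642 to 73998677) was close to the limit of detection. It had 7 and 10 counts in untreated and 2 and 12 in treated Empty cells, and 34 and 32 in untreated and 35 and 58 in treated NeuT cells. No change with the drug was called at these low counts, with edgeR adjusted p-values of 0.980 in Empty and 0.636 in NeuT. The NeuT to Empty ratio of summed counts under JG-98 was 5.95, with a counting interval of 3.37 to 11.3. The log2 difference of 2.60 (SE 0.53) was called (edgeR adjusted p = 0.000685), and it was 3.98 without treated Empty replicate 2.

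CCL20 (ENSG00000115009, chromosome 2, 227805739 to 227817564), the chemokine ligand of CCR6, was at 13.9 and 12.2 CPM in untreated and 19.0 and 16.2 CPM in treated Empty cells. In NeuT it was at 47.8 and 50.5 CPM without and 66.0 and 76.2 CPM with JG-98. No treated library overlapped an untreated one in either line. The rise of 0.53 (SE 0.088) in NeuT was called (edgeR adjusted p = 0.00243) and that of 0.43 (SE 0.10) in Empty was not (edgeR adjusted p = 0.105), though DESeq2 (adjusted p = 0.0116), a fit without the filter on low counts (0.000276) and a fit of only the 4 Empty libraries (0.0363) called it. The NeuT call was lost without untreated NeuT replicate 1 (adjusted p = 0.0884). Under JG-98 NeuT was higher by 2.02 (SE 0.095; edgeR adjusted p = 4.74e-11).

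**Figure D2:**
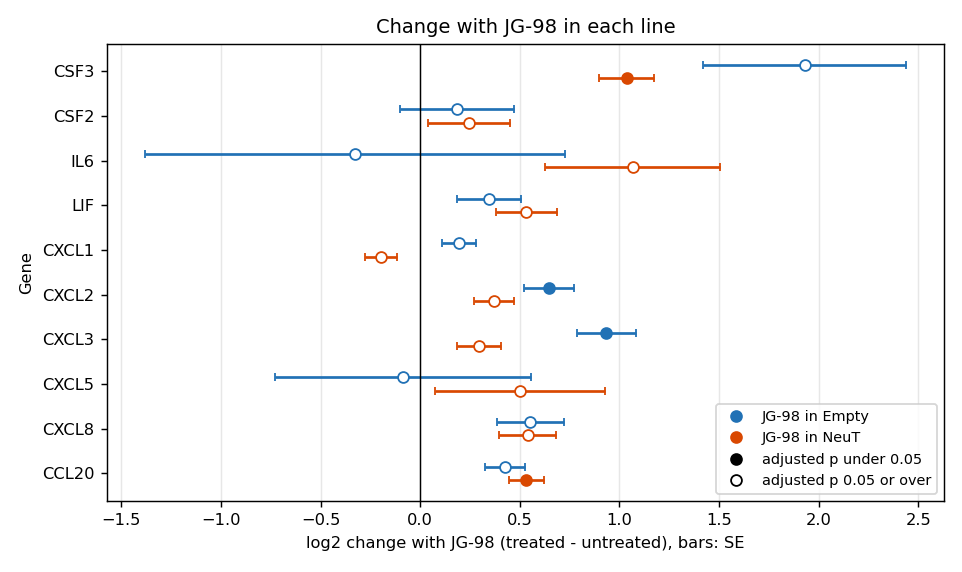
The log2 change with JG-98 on the x axis for each gene on the y axis, with bars for the SE, blue for Empty and orange for NeuT. Filled points passed the test at an adjusted p under 0.05, which were CXCL2 and CXCL3 in Empty and CSF3 and CCL20 in NeuT, and CXCL1 is the gene whose points lie on opposite sides of 0 with no overlap of libraries.

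Counted together, JG-98 in Empty cells gave 2 members called as higher of 10, against 0.260% of all genes tested called higher and 0.0791% called lower. In NeuT cells it also gave 2 of 10 called as higher, against 2.01% called higher and 1.01% called lower. The members called differed, CXCL3 and CXCL2 in Empty and CSF3 and CCL20 in NeuT, and this does not show a difference between the lines, which is tested below. The median log2 change of the 10 members was 0.39 in Empty and 0.52 in NeuT, beside medians over all genes tested that rounded to 0.00. In Empty 7 members had treated libraries above all untreated ones, against 20.9% of all genes. In NeuT 8 members did, against 21.9%, and CXCL1 was lower without overlap, against 22.9% of all genes.

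The counts of calls rested on the filter and on single libraries. The fit without the filter on low counts tested 31967 genes. For CXCL3 in Empty its edgeR adjusted p was 6.5e-14, against 0.0115 with the filter, at a log2 change of 0.93 in both. The calls of that fit, wherever they are given, are therefore not read as added support. It called 6 members in each line, CSF3, LIF, CXCL2, CXCL3, CXCL8 and CCL20 (adjusted p up to 0.0218 in Empty and 0.0158 in NeuT). In Empty they ran from 0 to 6 of the 10 members as each library was left out. Without Empty treated replicate 1, Empty untreated replicate 1 or Empty untreated replicate 2 none was called, and without either treated NeuT library 6 were. In NeuT they ran from 1 without untreated replicate 1 to 6 without treated replicate 1. Within treated NeuT cells, replicate 2 was above replicate 1 for 10 of 10 members, against 50.8% of all genes tested. CSF3 in NeuT was called in each fit that tested it, which leaves out the filter of at least 10 counts in every library, with a lowest log2 change of 0.73, when treated replicate 2 was left out, and a highest of 1.28, when treated replicate 1 was.

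The authors' deposited table for NeuT gives adjusted p-values under 0.05 to CSF3 (0.00108), CCL20 (0.00298), CXCL8 (0.0189) and CXCL2 (0.0382). The authors' deposited table for Empty gives none of the members one, with 0.0752 for CXCL2 and 0.0757 for CXCL3 as the lowest.

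Under JG-98, edgeR called as higher in NeuT than in Empty all 9 members that passed the filter in the Empty libraries as well, against 21.7% of all genes tested called higher and 20.0% called lower. In each of the 9 both treated NeuT libraries lay above both treated Empty libraries, against 34.0% of all genes. IL6, tested only through its NeuT libraries, is not counted among the 9. The median log2 difference of the 9 members was 2.49 and that of all genes tested was 0.00. The order ran from CSF3 (6.07) and IL6 (4.89) over CXCL8 (2.91), CXCL3 (2.64), CXCL5 (2.60), CSF2 (2.49), CXCL2 (2.1) and CCL20 (2.02) to CXCL1 (1.52) and LIF (0.93). IL6 is left out of the comparison of 95% intervals, though its own (3.47 to 6.30) overlapped that of CSF3 (5.60 to 6.54). Neighbours among the other 9 had overlapping intervals, except CSF3 and CXCL8 (2.53 to 3.28). CCL20 (1.82 to 2.22) and CXCL1 (1.34 to 1.70) did not overlap either, nor did CXCL1 and LIF (0.57 to 1.28). The 9 remained called without any 1 library.

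The untreated lines, which chose CSF3, differed in the same direction for each member, and no test is attached. The log2 differences were 6.96 for CSF3, 3.49 for IL6, 3.28 for CXCL3, 2.92 for CXCL8, 2.43 for CSF2, 2.37 for CXCL2, 2.01 for CXCL5, 1.91 for both CCL20 and CXCL1, and 0.74 for LIF. For IL6 the value is loose, since the counting interval of the ratio of 11.7 was 5.10 to 33.0.

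**Figure D3:**
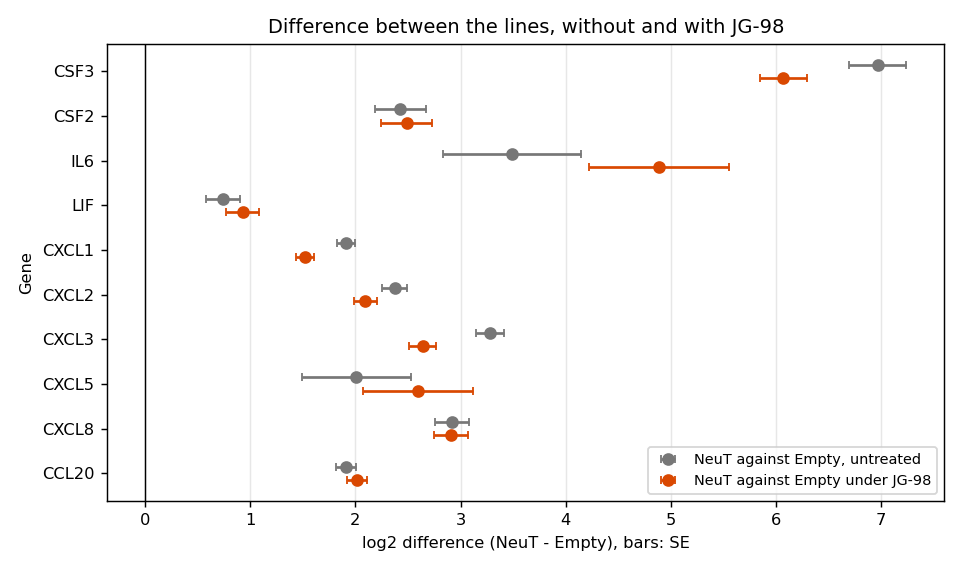
The log2 difference between NeuT and Empty on the x axis for each gene on the y axis, grey without and orange with JG-98, with bars for the SE. All 20 points lie above 0, with CSF3 farthest to the right at 6.96 and 6.07 and LIF closest to 0 at 0.74 and 0.93.

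Whether the response to JG-98 differed between the lines was tested by the interaction, which uses the untreated libraries that picked CSF3 as well. EdgeR called 0 of 10 members, and DESeq2 also called 0. Over all genes tested 0.00565% were called at the adjusted threshold, which is 1 gene. At an unadjusted p under 0.05 there were 2 members, CXCL1 and CXCL3, and the share of all genes at that level is not given. The interaction was -0.39 for CXCL1 (95% interval -0.64 to -0.14; edgeR adjusted p = 0.490) and -0.64 for CXCL3 (-1.03 to -0.25; edgeR adjusted p = 0.490), both toward a smaller or opposite change in NeuT. Without the filter on low counts both were called (adjusted p = 0.0112 and 0.00297). For CSF3 it was -0.89 (-2.06 to 0.27; edgeR adjusted p = 0.718), an interval that spans 0. The intervals were -0.53 to 0.50 for CXCL8, -0.18 to 0.39 for CCL20 and -0.32 to 0.69 for LIF. For LIF the interaction was called without treated NeuT replicate 1, at 0.44 (adjusted p = 0.0249).

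Per unit of exonic length (RPKM), CXCL1 ranked first in each group, at 36.5 ± 5.4 and 41.8 ± 1.1 in untreated and treated Empty cells, and at 137 ± 1.4 and 119.9 ± 8.7 in untreated and treated NeuT cells (SD, n = 2 each). CCL20 came next and CXCL8 after it in both Empty groups, and they changed places in both NeuT groups. CXCL8 reached 65.9 ± 14.9 RPKM (SD, n = 2) in treated NeuT. CSF3 was ninth in untreated Empty with 0.0554 ± 0.011 RPKM (SD, n = 2), where its libraries overlapped those of CXCL5 above it and IL6 below it. It was sixth in treated NeuT with 14.4 ± 3.8 RPKM (SD, n = 2), where its libraries overlapped those of CXCL2 above it and LIF below it. In Empty with JG-98, CXCL2 and CXCL3 overlapped, and in untreated NeuT so did LIF and CSF3 as well as IL6 and CXCL5.

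CXCL1 held the largest share of the summed RPKM of the 10 genes in each library. In Empty the sum was 65.3 and 55.1 without and 78.3 and 73.0 with JG-98, and in NeuT it was 261 and 264 without and 269.9 and 328 with it. The share of CXCL1 was 61.8% and 59.2%, 54.4% and 56.2%, 52.2% and 52.3%, and 42.1% and 38.4% in the same order. CXCL1 thus held a smaller share in each treated library than in the untreated ones of its line. The share of CXCL8 was 9.89% and 10.0% without and 11.8% and 11.4% with the drug in Empty, and 17.5% and 17.0% without and 20.5% and 23.3% with it in NeuT. That of CSF3 was at most 0.295% in Empty, and in NeuT it was 2.59% and 2.78% without and 4.34% and 5.24% with the drug. These shares are descriptions of 2 libraries a group and were not tested.

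**Figure D4:**
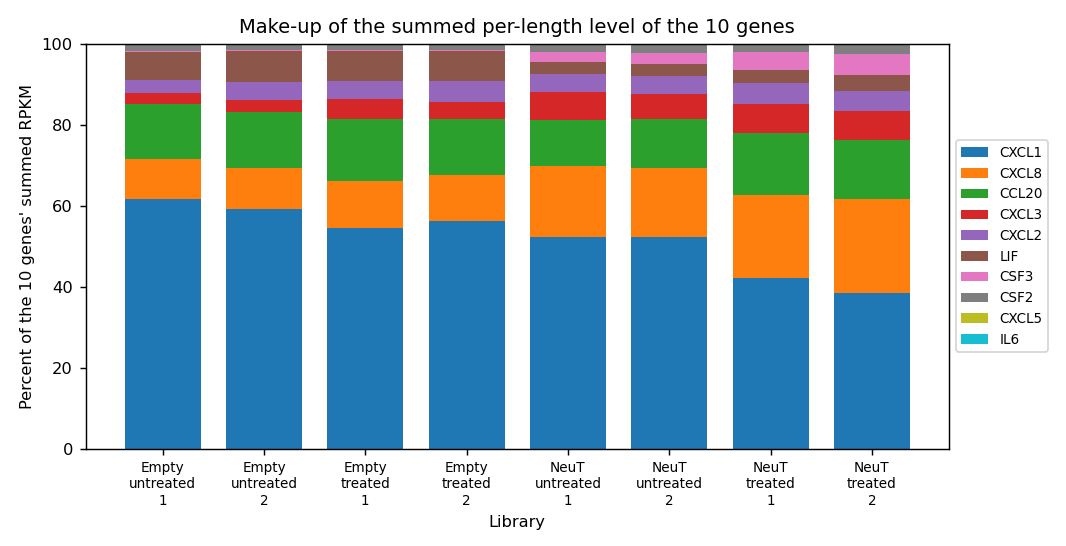
Stacked bars of the percent that each gene holds of the summed RPKM of the 10 genes, with 1 bar for each of the 8 libraries. The CXCL1 segment at the bottom is 61.8% in untreated Empty replicate 1 and 38.4% in treated NeuT replicate 2, and that of CXCL8 above it is 9.89% and 23.3%.

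The 5 CXC members lie within 358.7 kb of chromosome 4, a region in which the count table lists 18 genes. Of the 13 that are not members, 11 had under 50 counts on average. PPBP, the platelet chemokine CXCL7, lies between CXCL1 and CXCL5 and was at 8.75 ± 0.39 CPM (SD, n = 2) in treated NeuT against 1.77 ± 0.17 CPM (SD, n = 2) in treated Empty, a difference of 2.31 (SE 0.17; edgeR adjusted p = 1.16e-08). It had 0.23 and 0.06 for the change with JG-98 in Empty and NeuT, neither of which was called. The transcript ENSG00000251017 next to CXCL2 differed by 0.49 (SE 0.21) and was not called (edgeR adjusted p = 0.0721). CXCL6, a CXCR2 ligand between CXCL8 and CXCL1, had at most 4 counts in any library. The genes of this region were therefore far from equal in level, with 155 CPM for CXCL1 and 0.860 CPM for CXCL5 in treated NeuT.

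**Figure D5:**
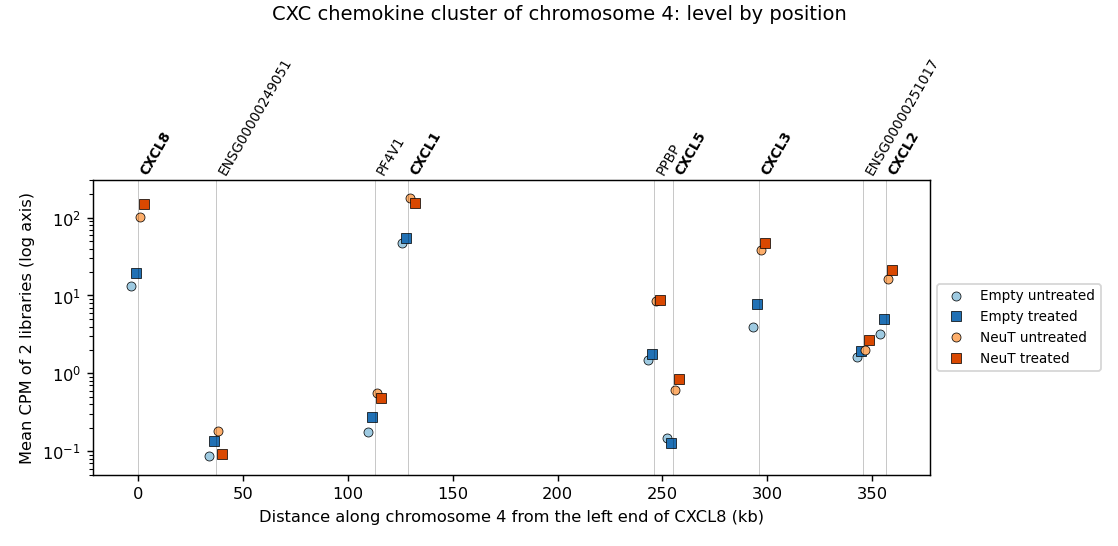
Mean CPM of 2 libraries on a log axis against the distance along chromosome 4 from the left end of CXCL8, for genes with at least 5 counts on average, members in bold and the 4 groups set slightly apart along the axis. The CXC members and PPBP show NeuT above Empty, from 0.149 to 0.607 CPM without JG-98 for CXCL5 and from 47.3 to 178 CPM for CXCL1.

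Likeness to CSF3 was measured as the root mean square difference in log2 CPM over the 8 libraries, after centring each gene on its mean. Since CSF3 was chosen for its pattern, the order is a description. Among 13115 genes with enough counts, the 5 closest were SAMSN1 (0.54), IL1A (0.67), HEPHL1 (0.69), LCE3E (0.71) and TREM1 (0.73). In untreated and treated Empty cells LCE3E was at 0 CPM in both, HEPHL1 at 0.018 and 0.035 CPM, and TREM1 at 0.105 and 0.172 CPM. At such levels the log2 values depend on the prior count of 2. The exact distances and ranks of these genes are therefore loose. IL1A, interleukin-1 alpha, went from 2.51 ± 0.034 to 6.06 ± 0.89 CPM with JG-98 in Empty and from 85.8 ± 5.8 to 185.9 ± 38 CPM in NeuT (SD, n = 2 each). Its change was called in NeuT at 1.12 (SE 0.13; edgeR adjusted p = 0.00217) and not in Empty at 1.25 (SE 0.21; edgeR adjusted p = 0.0629). The member with the smallest difference from CSF3 was IL6 (1.57), which had too few counts to be ranked. The closest ranked member was CXCL3 at rank 44 (1.72), followed by CXCL8 at rank 49 (1.75), and LIF was at rank 728 (2.78). Among the members themselves, CXCL3 and CXCL8 were the closest pair (0.18), followed by CXCL2 and CCL20 (0.21), and CSF3 and LIF the farthest (2.78).

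Other genes of the pathway were then counted in lists that had been drawn up by function. Their calls between lines under JG-98 stand beside 21.7% of all genes tested called higher and 20.0% called lower, and those with the drug beside 0.260% and 0.0791% in Empty and 2.01% and 1.01% in NeuT. Nothing particular to a list is read from its count. For counts at an unadjusted p under 0.05 the share over all genes is not given. Of 18 tested genes that act upstream (interleukin-1, interleukin-17, TNF and Toll-like receptor signalling), 16 had at least 10 counts in an Empty library, and under JG-98 9 of these were called higher in NeuT and 1 lower, with a median log2 difference of 0.30. IL1B, the second interleukin-1 agonist, is not among them, with 3 to 7 counts in the Empty libraries. It was at 0.138 CPM in treated Empty and 44.0 CPM in treated NeuT, and since it was tested only through NeuT no p is given. IL1A was higher by 4.96 (SE 0.16), IL17C by 3.02 (SE 0.31) and the receptor-proximal kinase IRAK2 by 2.60 (SE 0.17), all called (edgeR adjusted p up to 4.32e-07). With JG-98 in NeuT 2 of the 18 were called, both higher, IL1A and IRAK2 (0.72, SE 0.15; edgeR adjusted p = 0.0130). In Empty edgeR called 0 of them, and 3 had an unadjusted p under 0.05. TNF is listed at 0 counts in every library, which does not show that it is not expressed, since how reads with several matches were counted is not stated.

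Of 18 transcription factors and their regulators, under JG-98 13 were called higher in NeuT and 1 lower, with a median of 0.38. FOS was higher by 1.99 (SE 0.098), NFKBIZ, an NF-kB co-regulator, by 1.38 (SE 0.12) and RELB by 1.35 (SE 0.15), with edgeR adjusted p-values up to 6.15e-05. With JG-98, 2 of the 18 rose in Empty and 4 in NeuT. ATF4 rose by 0.51 (SE 0.082; edgeR adjusted p = 0.0157) in Empty and 1.34 (SE 0.084; edgeR adjusted p = 1.67e-06) in NeuT. DDIT3 rose by 1.33 (SE 0.18; edgeR adjusted p = 0.00156) and 2.60 (SE 0.16; edgeR adjusted p = 1.56e-07). CEBPG (0.77) and JUNB (0.22) were the others called in NeuT (edgeR adjusted p = 0.00118 and 0.0442). The NF-kB genes NFKB1, NFKB2, RELA, RELB, REL and NFKBIA were called in neither line with the drug.

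A further list held 14 genes linked to the decay or stability of mRNAs, AU-rich mRNAs included, the class to which several of the members belong. Under JG-98, 7 of the 14 were called higher in NeuT and 3 lower, with a median of 0.32. The share called lower was close to that of all genes. The phosphatase DUSP1 was higher by 1.69 (SE 0.058), and the decay factors ZC3H12C, ZFP36L2 and ZC3H12A by 1.26, 0.90 and 0.84, with edgeR adjusted p-values up to 4.11e-07. With JG-98 in NeuT, DUSP1 rose by 0.30 (SE 0.056; edgeR adjusted p = 0.00610) and KHSRP, a decay-promoting RNA-binding protein, fell by 0.21 (SE 0.051; edgeR adjusted p = 0.0304). In Empty edgeR called 0 of the 14, and 3 had an unadjusted p under 0.05.

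The receptors of the members were largely not detected. Of 10 receptor genes 4 were tested, and 3 were called higher in NeuT under JG-98, with a median of 0.74. These were the IL-6 family receptors LIFR (0.97, SE 0.22), IL6ST (0.75, SE 0.073) and IL6R (0.72, SE 0.12), with edgeR adjusted p-values up to 0.00180. CXCR1 was tested and not called (0.17). CSF3R, CSF2RB, CXCR2, CCR6 and the decoy receptor ACKR1 had at most 2 counts in any library, and CSF2RA is listed at 0 counts, with the same limit as for TNF. No receptor was called with JG-98 in Empty or NeuT, and at an unadjusted p under 0.05 there were 0 and 1. Of 14 genes of receptor signalling and feedback, under JG-98 8 were called higher in NeuT and 1 lower, with a median of 0.36. The feedback inhibitors SOCS1, SOCS3 and SOCS2 were higher by 1.88, 1.10 and 1.02 (edgeR adjusted p up to 9.3e-05). PIM1 differed by -0.82 (SE 0.099; edgeR adjusted p = 5.13e-06) and was the single gene of this list called with JG-98, higher in NeuT by 0.45 (SE 0.10; edgeR adjusted p = 0.0254).

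Related ligands were mixed in direction, with counts to be read beside the same shares over all genes. Of 8 tested relatives among growth factors and IL-6 family cytokines, under JG-98 3 were called higher in NeuT and 1 lower, with a median of 0.18. CSF1, the macrophage colony-stimulating factor, was higher by 1.49 (SE 0.18; edgeR adjusted p = 4.34e-06), while IL34, the other ligand of its receptor, differed by -2.58 (SE 0.22; edgeR adjusted p = 5.81e-08). KITLG (0.69) and CLCF1 (0.34) were called higher (edgeR adjusted p = 1.13e-06 and 0.00107), and IL11 was not called (0.03, edgeR adjusted p = 0.944). Of 5 tested CXC chemokines outside the members, CXCL10 had at most 2 counts in any Empty library and was tested only through NeuT. Of the other 4, 2 were called higher and 1 lower, with a median of 1.1. CXCL17 was higher by 1.39 (SE 0.22; edgeR adjusted p = 6.41e-05) and CXCL16 differed by -0.74 (SE 0.075; edgeR adjusted p = 4.99e-07). Of 3 tested CC chemokines other than CCL20, CCL26 was at 0 counts in each Empty library and likewise tested only through NeuT, and the other 2 were called lower. CCL22 differed by -1.17 (SE 0.28; edgeR adjusted p = 0.00271) and CCL28 by -0.47 (SE 0.098; edgeR adjusted p = 0.000779). With JG-98 edgeR called none of these 16 tested ligands in either line, and at an unadjusted p under 0.05 there were 2 in Empty and 4 in NeuT.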

How the data were processed

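Poly(A) RNA of 8 libraries was sequenced, with samples grouped by their titles and count columns matched by name. The members and the gene lists were chosen with earlier results of these data known. The authors deposited raw counts per gene in the layout of featureCounts, together with the exonic length of each gene, per the file headers. Trim Galore 0.5.0, FastQC 0.11.7, HISAT2 2.1.0, SAMtools 1.9, featureCounts 1.6.3 and limma are named in the submitters' processing notes, with the builds hg38 and GRCh38. The annotation release, the strand setting and how multi-mapping reads were treated are not given in the sources used here, so antisense and paralogous reads cannot be separated. The authors also deposited log2 fold changes, mean log2 expression and p-values of their own comparison in each line, per the file headers. Of the per-sample columns, 0 lacked a sample.

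Counts were analysed with edgeR 4.0.16 in R 4.3.3: filterByExpr (minimum count 10, total 15; 17693 genes), TMM factors, a robust quasi-likelihood fit with 4 group coefficients, and Benjamini-Hochberg adjustment over all genes tested. Called means an adjusted p-value under 0.05. The SE was derived from the log2 change and the root of its F statistic, and intervals are at the 95% level. CPM are TMM-scaled, and RPKM divide them by exonic length. Counting intervals for ratios of summed counts are exact. Libraries of a group differed beyond sampling noise (chi-square per gene 4.27 to 19.9) and were kept as separate replicates. With 2 libraries a group, no exact permutation test of a single gene can reach 0.05, so the tests use dispersions estimated across genes. Named were all members, up to 4 called genes with at least 50 counts per list and comparison by size, 10 fixed genes whatever their values, the 5 genes most like CSF3, and neighbours with at least 50 counts. Promoters came from the RefSeq table of GRCh38.p14. Protein sequences were not used here. The procedure was tested on simulated counts. Alternatives were other scaling factors, other filters, DESeq2 1.42.0, a replicate block, smaller fits and leaving out each library.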

Additional observations from a re-analysis of the deposited data

Results flagged for a closer look

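The libraries of CXCL1 differed in opposite directions in the lines, though neither change was called (0.19, edgeR adjusted p = 0.455 in Empty, and -0.20, edgeR adjusted p = 0.243 in NeuT). Both treated Empty libraries (55.2 and 53.1 CPM) lay above the untreated ones (52.3 and 42.3 CPM), and both treated NeuT libraries (147 and 163 CPM) lay below theirs (177 and 179 CPM). The interaction of line and drug was -0.39 on the log2 scale and was not called (edgeR adjusted p = 0.490). It was called without the filter on low counts (adjusted p = 0.0112). The Empty change was 0.0501 without untreated Empty replicate 2 and 0.36 without untreated Empty replicate 1.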

How the results depend on the processing

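The line difference under JG-98 was called for all 9 members that passed the filter in the Empty libraries as well, under each alternative except a filter of at least 10 counts in every library, which kept 7 members and called all 7. Calls with JG-98 were less stable. In Empty, where 2 members and 60 genes were called, there were 6 and 282 without the filter on low counts, 4 and 151 with DESeq2, 4 and 223 with only the 4 libraries compared, and 0 to 6 and 9 to 389 as each library was left out. In NeuT, where 2 members and 533 genes were called, there were 6 and 1000 without the filter, 1 member with at least 10 counts in every library (fewer members tested), 183 genes with only the 4 libraries compared, and 1 to 6 and 134 to 2112 as each library was left out. The interaction called 0 members and 1 gene, 2 and 138 without the filter, 26 genes with DESeq2, 2 genes with total counts, and 0 to 1 and 1 to 751 as each library was left out. The cause was not tested. Scaling by RLE or total counts changed no member's call.

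Directions turned only when a library was left out, for changes that were not called. The ranges were -1.30 to 4.22 for IL6, -0.0272 to 0.43 for CSF2 and -1.47 to 0.45 for CXCL5 with JG-98 in Empty, and -0.0597 to 0.49 for CSF2 in NeuT. For the interaction they were -0.25 to 0.30 for CSF2, -3.15 to 2.37 for IL6, -0.28 to 0.20 for CXCL8, -0.0113 to 0.22 for CCL20 and -0.14 to 0.44 for LIF. IL6 rests on 0 counts in untreated Empty replicate 2. Where an arm kept 1 library, that library was assumed to vary like the other groups.

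Replicate numbers were checked as a pairing. Differences between replicates of one group correlated with those of another with r of -0.10 to 0.24, with 0.24 between treated Empty and treated NeuT. The numbers were not taken as a pairing, and whether the treated libraries of a number share a batch was not tested. With the replicate block 3 members were called in Empty (CSF3 in addition, adjusted p = 0.0404) and 3 in NeuT (CXCL2 in addition, 0.0349). For the interaction it called 0 members. Between lines under JG-98 it called all 9 members that passed the filter in the Empty libraries as well. Over all 17693 genes tested the block called 66 in Empty, 593 in NeuT and 7451 between lines under JG-98. Low counts limit IL6 and CXCL5 in Empty, and edgeR called their changes with JG-98 in neither line.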
